A study of Mus musculus with 10 samples.

Results

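The nuclear genes of oxidative phosphorylation were followed across 10 libraries of mammary tumours. They were chosen by name alone: 93 of the 37882 rows of the count table have names that begin with Nduf, Uqcr or Atp5, that are Sdha, Sdhb, Sdhc or Sdhd, or that begin with Cox4 to Cox8, with names containing -ps left out. Grouped by name, 45 belong to complex I, 4 to complex II, 8 to complex III, 18 to complex IV and 18 to complex V. The filter on low counts was passed by 87 of the 93, and each of the other 6 is accounted for below.

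The tumours were orthotopic and came from MCa-M3C, a mammary tumour line, grown in FVB/N mice and assigned to groups at about 100 mm3. Control animals received PBS and treated animals TMA-ARB, a form of the angiotensin receptor blocker valsartan built to act in the tumour environment, at 40 mg/kg of valsartan, both intravenously by the retro-orbital route on each of 6 days. Each group held 5 libraries of poly-A RNA, and the labels do not tie each one to its own animal, so the p-values rest on the variation among these libraries, which may be technical. The comparison asks which transcripts differ between treated and control tumours. The libraries are of whole tumours from 1 line, so for every gene below, fewer cells of a type and less RNA per cell cannot be told apart.

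Oxidative phosphorylation takes electrons from NADH at complex I and from succinate at complex II, passes them through ubiquinone, complex III and cytochrome c to oxygen at complex IV, and uses the proton gradient so formed to make ATP at complex V, the ATP synthase. Most of its subunits are encoded in the nucleus and imported, while a small set is encoded in mitochondrial DNA; complex II alone is wholly nuclear, and it also serves the citrate cycle. Many of the small nuclear subunits have processed pseudogenes, reverse-transcribed copies of their mRNA, elsewhere in the genome.

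Library totals ran from 12742953 to 16884621 counts. Mitochondrially encoded genes took 2.15%, 2.07%, 6.37%, 6.63% and 3.75% of the counts in control replicates 1 to 5, and 2.22%, 3.18%, 10.5%, 25.0% and 11.7% in TMA-ARB replicates 6 to 10. These shares overlapped between the groups, with means of 4.19% (SD 2.21) for PBS and 10.5% (SD 9.12) for TMA-ARB over 5 libraries each (two-sided exact permutation p = 0.143). Of the 8 epithelial markers 6 passed the filter (all but Cldn4 and Cldn7). All 8 together summed to 84.1 to 159 CPM in controls and 107 to 243 CPM under TMA-ARB. CPM, a library's counts scaled to a common depth, uses library sizes adjusted here by the TMM factors of edgeR. The 6 fibroblast markers summed to 4890 to 6188 CPM in controls and 5075 to 5817 CPM under TMA-ARB.

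Near-identical copies and promoter letters bear on the values. Copies matter because Salmon divides reads among transcripts that it cannot tell apart. Ndufb4, an accessory subunit of complex I on chromosome 16 (37647170 to 37654453, mm10 assembly, GENCODE M21), has a coding sequence of 387 bases without its stop codon. The processed pseudogene Gm3244 on chromosome 15 (73809507 to 73809896) holds it with 0 mismatches, so a read inside it fits both rows. For Cox7c and Cox6c, small subunits of complex IV, the copies Gm10012 and Gm6265 differ from the coding sequence at 2 of 189 and 7 of 228 bases. The copy Gm12338 has 0 mismatches to Cox7c over the same 189 bases and held 7340 counts, so any read inside that coding sequence fits its row too. The differing bases are shown in capitals in the GENCODE M21 sequences that follow, and a read that covers none of them fits both rows of the pair. For Ndufb4 and Gm3244 bases 1 to 300 of the coding sequence are shown.
Ndufb4 and Gm3244: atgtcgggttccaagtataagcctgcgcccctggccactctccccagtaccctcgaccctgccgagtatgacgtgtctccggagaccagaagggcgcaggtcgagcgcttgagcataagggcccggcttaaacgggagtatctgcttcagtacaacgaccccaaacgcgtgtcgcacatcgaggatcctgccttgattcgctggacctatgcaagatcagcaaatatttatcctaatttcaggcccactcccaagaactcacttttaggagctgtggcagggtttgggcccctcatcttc
Cox7c: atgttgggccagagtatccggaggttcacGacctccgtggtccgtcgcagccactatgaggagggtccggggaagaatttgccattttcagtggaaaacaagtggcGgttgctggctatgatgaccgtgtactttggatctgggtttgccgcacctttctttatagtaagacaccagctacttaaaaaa
Gm10012: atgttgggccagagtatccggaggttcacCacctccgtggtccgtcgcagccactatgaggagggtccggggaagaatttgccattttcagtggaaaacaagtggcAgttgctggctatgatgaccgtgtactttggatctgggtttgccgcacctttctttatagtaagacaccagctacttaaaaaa
Cox6c: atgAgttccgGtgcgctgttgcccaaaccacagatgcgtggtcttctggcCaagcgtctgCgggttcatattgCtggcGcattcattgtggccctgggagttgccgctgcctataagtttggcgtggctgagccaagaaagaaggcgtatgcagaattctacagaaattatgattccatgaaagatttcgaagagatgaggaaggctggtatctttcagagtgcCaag
Gm6265: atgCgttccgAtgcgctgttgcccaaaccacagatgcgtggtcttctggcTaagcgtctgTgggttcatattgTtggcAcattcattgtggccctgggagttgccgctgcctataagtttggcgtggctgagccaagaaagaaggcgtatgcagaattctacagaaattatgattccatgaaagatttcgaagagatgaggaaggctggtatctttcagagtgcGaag

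For promoters, a RefSeq promoter (GRCm38.p6, 250 bases before to 50 after the transcription start) was held for 76 of the 93 members. The motifs known from nuclear respiratory genes that were searched by exact match on both strands were NRF1, ETS (CCGGAAG, the core read by GABP), ERR (TCAAGGTCA), CRE (TGACGTCA) and YY1, with 1 fixed spelling each. No motif contains another. The ETS letters stood in 17 of 76 members (22.4%), against 9.93% of the 27025 genes with a promoter of the same length, and the NRF1 letters in 7 (9.21%) against 1.07%. YY1 was at 6 members (7.89%) against 0.995%, CRE at 4 (5.26%) against 2.03%, and ERR at 2 (2.63%) against 0.466%. NRF1 or ETS or both stood in 22 members (28.9%), against 10.8% of all genes. The 27025 genes were not limited to those measured here or matched to the members in expression or base composition. A match describes letters only. Sdhd and Atp5e are printed because both carry the ETS letters and their slopes on the mitochondrial share, given further on, had opposite signs; that of Atp5e passed the test in fewer fits than that of Sdhd. Capitals mark the motif, here on the reverse strand: CTTCCGG is ETS, and TGACCTTGA in Sdhd is ERR. The Sdhd promoter lies at chr9:50603800-50604099 and that of Atp5e at chr2:174464052-174464351, both on the minus strand.
Sdhd: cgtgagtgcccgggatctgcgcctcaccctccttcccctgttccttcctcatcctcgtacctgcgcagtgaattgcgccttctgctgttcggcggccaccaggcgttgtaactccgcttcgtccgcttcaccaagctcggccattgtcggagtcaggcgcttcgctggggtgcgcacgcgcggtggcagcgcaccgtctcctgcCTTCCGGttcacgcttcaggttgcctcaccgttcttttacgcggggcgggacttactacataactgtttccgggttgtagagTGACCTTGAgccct
Atp5e: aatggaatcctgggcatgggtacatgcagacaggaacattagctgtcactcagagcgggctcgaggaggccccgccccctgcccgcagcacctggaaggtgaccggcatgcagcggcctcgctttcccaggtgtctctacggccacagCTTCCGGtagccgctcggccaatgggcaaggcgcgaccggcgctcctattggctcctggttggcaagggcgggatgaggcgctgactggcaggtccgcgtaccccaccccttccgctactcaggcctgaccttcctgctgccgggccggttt

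In control tumours nearly all common subunits were abundant and most tissue-specific forms were close to absent. Levels are compared here as control means in CPM per kilobase of the median annotated transcript (SD, n = 5). In complex I the highest was Ndufa4 at 376 ± 116; it keeps a complex I name although its protein is now placed in complex IV. Its relative Ndufa4l2, a hypoxia-induced form, was the lowest at 1.95 ± 0.71. The 7 catalytic core genes lay between, from 71.9 ± 8.26 (Ndufv1, of the NADH-binding site) to 206 ± 46.8 (Ndufv2, an iron-sulphur subunit). Among the succinate dehydrogenase genes of complex II, Sdhc, a membrane anchor, was highest at 125 ± 12.8 and Sdhd, the other anchor, lowest at 61.4 ± 24.5. The place of Sdhc depended on its transcript model, since per kilobase of its longest transcript it was at 32.0. Places of core genes of complex I can depend on it too. Ndufs1 has a median transcript of 651 bases and a longest of 2661, and Ndufv2 813 and 1697. In complex III, Uqcrh, the hinge protein, was at 531 ± 118 and Uqcrfs1, the Rieske iron-sulphur protein, at 79.0 ± 9.20. In complex V, Atp5e, the epsilon subunit of the catalytic head, was at 887 ± 413 and Atp5sl, which is now named Dmac2 and is not a synthase subunit, at 4.75 ± 0.39.

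Complex IV held the clearest contrast between isoforms. Cox4i1, the general form of subunit 4, was at 800 ± 194 CPM per kilobase and Cox4i2, the lung and hypoxia form, at 2.32 ± 0.94. Cox6a1 was at 464 ± 110 and its heart and muscle form Cox6a2 at 0.66 ± 0.27. Cox7a2 was at 279 ± 67.0 and the muscle form Cox7a1 at 6.75 ± 3.59. Of the 6 members that did not pass the filter, Cox6a2 held 42 counts over all libraries and Cox6b2, a testis form, 68. Cox8b, another heart and muscle form, held 29 counts, 22 in control replicate 1 and 7 in control replicate 3. Its 0 counts in the TMA-ARB libraries allow at most 3 counts in each, which is 0.182 to 0.308 CPM. Cox7b2 held 4 counts, all in TMA-ARB replicate 9, Cox8c 4 counts, all in control replicate 1, and Atp5l2, which the annotation calls a processed pseudogene, 11 counts. The 12 skeletal muscle markers (5 passed the filter, none at 0 in all libraries) together summed to 90.8 to 239 CPM in controls and 69.5 to 282 CPM under TMA-ARB. Their part in these low isoforms was not tested. In the proton-carrying c-ring of complex V, which 3 genes encode as the same mature protein, Atp5g3 was at 456 ± 99.3, Atp5g1 at 51.0 ± 13.4 and Atp5g2 at 8.81 ± 6.70, and most reads of the last stood in a copy row (given below). The Atp5g1 value rests on a median transcript of 2675.5 bases, against 718.5 for Atp5g3 and 683 for Atp5g2.

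None of the 87 members measured passed the test for a difference between TMA-ARB and control, a test that recovered 18% of simulated 2-fold changes. The quasi-likelihood test of edgeR with Benjamini-Hochberg adjustment called 0 of the 87 members and 0 of all 14063 genes tested (0%); DESeq2 called 2 genes and limma-voom 0, none of them a member. At an unadjusted p under 0.05 there were 2 members higher and 0 lower, against 1.59% higher and 1.66% lower of all genes tested (3.25% in either direction, 457 genes). In 0 members did the groups not overlap, against 0.526% of all genes. The log2 fold change (TMA-ARB over control) was positive in 58 of 87 members with a median of 0.095, while the median of all genes was 0.021. The direction of that median rested on single libraries: it was -0.02 without control replicate 2, with 41 of 87 positive, 0.002 without TMA-ARB replicate 7, with 44 positive, and 0.197 without TMA-ARB replicate 6. It was 0.005 with a covariate for the log2 mitochondrial share and 0.036 with muscle and adipocyte covariates. The members took 1.30% ± 0.192 of all counts in control libraries and 1.27% ± 0.246 in treated ones (SD, n = 5, two-sided exact permutation p = 0.817). All counts include those of mitochondrially encoded genes, on average 4.19% in control and 10.5% in treated libraries. The members' share is thus lowered where these are high.

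**Figure D1:**
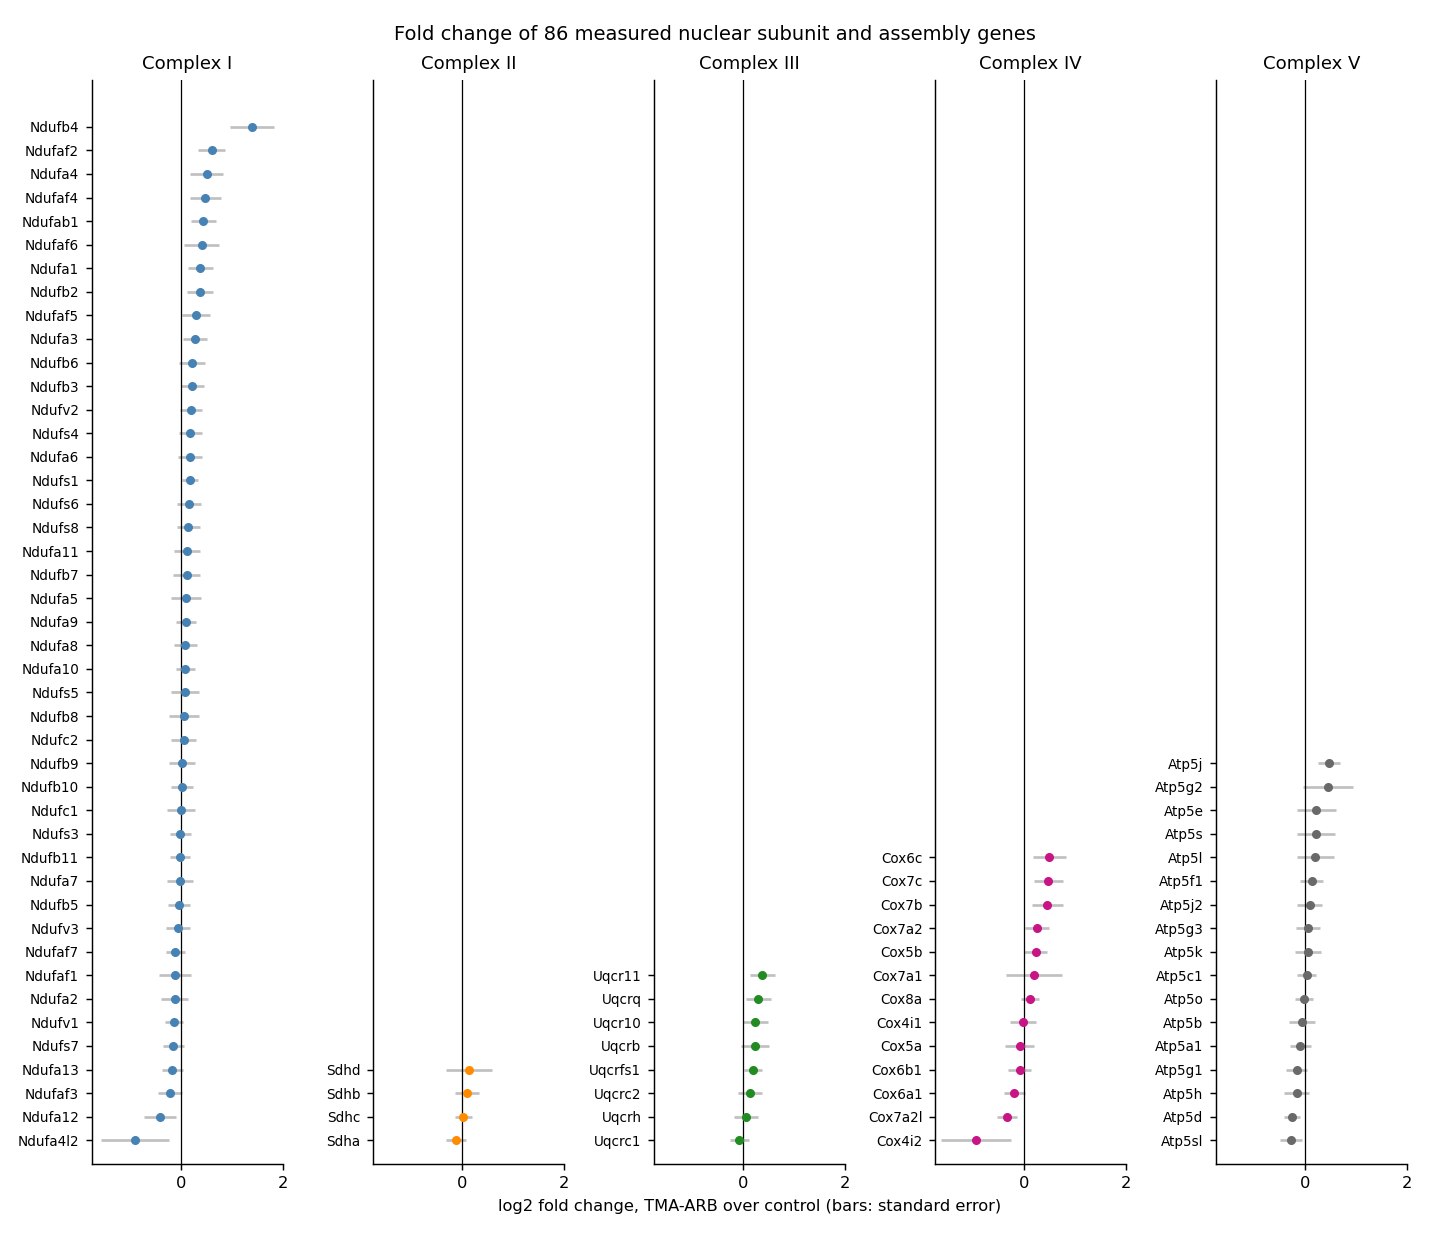
Log2 fold change of TMA-ARB over control on the x axis for 86 of the 87 measured members (1 is not shown), 1 panel per complex, with bars for the standard error (5 libraries a group). Ndufb4 stands at 1.40 at the top of complex I, and 57 of the 86 points lie above 0, none of them past the adjusted threshold.

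By complex, the median log2 fold change was 0.099 in complex I (31 of 45 positive), 0.061 in complex II (3 of 4), 0.213 in complex III (7 of 8), 0.115 in complex IV (7 of 13 measured) and 0.051 in complex V (10 of 17 measured). All except complex III turned negative without control replicate 2 (-0.03 in I, -0.04 in II, -0.05 in IV and -0.04 in V). Within complex I the median was 0.114 for the 7 core genes, 0.089 for 29 accessory subunits and 0.299 for 7 assembly factors, which build the complex without staying in it. The 13 subunits encoded in mitochondrial DNA were all positive, with a median of 1.66. Of these, 9 were at an unadjusted p under 0.05, against 3.25% of all genes tested, and 0 were called. They are part of the mitochondrially encoded share given above, so they are not 13 separate results. That share overlapped between the groups (two-sided exact permutation p = 0.143). The adjusted p in edgeR was 0.997 for 86 of the 87 members and 0.9999 for Ndufc1, so the values that follow are given as differences that did not pass.

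Members are taken in order of p within each direction. Ndufb4 had the smallest p and the largest log2 fold change. It measured 6.44, 10.0, 17.8, 11.9 and 12.6 CPM in control replicates 1 to 5, and 8.36, 28.3, 35.3, 62.5 and 21.1 CPM in TMA-ARB replicates 6 to 10. TMA-ARB replicate 6 lay among the controls and the other TMA-ARB libraries above all of them. The log2 fold change was 1.40 ± 0.43 (SE), and 0.99 without TMA-ARB replicate 9. Its copies, chiefly Gm3244, were found only by the rule for shorter copies, which was added after the data had been seen. Summed with them, the level was 57.6 ± 11.3 CPM in controls and 82.0 ± 29.6 CPM with TMA-ARB. The log2 fold change of the sum was 0.51 ± 0.26 (edgeR adjusted p = 0.997).

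Ndufaf2, an assembly factor of complex I, measured 15.6, 16.7, 27.5, 31.6 and 24.6 CPM in controls and 20.3, 49.1, 31.8, 45.6 and 29.5 CPM under TMA-ARB. The groups overlapped through TMA-ARB replicates 6 and 10 (log2 fold change 0.60 ± 0.27). Atp5j, coupling factor 6 of the peripheral stalk of ATP synthase, measured 69.2, 72.8, 89.0, 98.6 and 81.5 CPM in controls and 62.0, 127, 131, 140 and 104 CPM under TMA-ARB. TMA-ARB replicate 6 was below every control and the other 4 TMA-ARB libraries above every control (0.46 ± 0.21). The next 3 by p in the higher direction were Ndufab1, the mitochondrial acyl carrier protein (0.44 ± 0.25), Cox7c (0.47 ± 0.28) and Ndufa4 (0.51 ± 0.32). By log2 fold change alone, Cox6c (0.49 ± 0.33), Ndufaf4 (0.48 ± 0.31) and Cox7b (0.46 ± 0.30) also stood above Ndufab1. The Atp5g2 row, at 0.444, lay just above Ndufab1 at 0.441. Adding the mitochondrially encoded share to the model lowered most of these values. Ndufb4 was then at 0.75 ± 0.31, Atp5j at 0.23 ± 0.19 and Ndufab1 at 0.14 ± 0.21. Cox7c was at 0.08 ± 0.21 and Cox7b at 0.08 ± 0.25. Ndufaf2 at 0.43 ± 0.25 and Ndufa4 at 0.47 ± 0.35 moved less. Ndufb4, Ndufab1, Cox7c, Cox6c and Cox7b are among the members called further on for their slope on that share.

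In the lower direction, Cox7a2l, a factor that joins complexes III and IV into supercomplexes, measured 208, 196, 144, 160 and 166 CPM in controls and 149, 175, 137, 86.0 and 140 CPM under TMA-ARB. All 5 TMA-ARB libraries were at or below the control mean of 175 ± 26.7 CPM, but the groups overlapped (log2 fold change -0.35 ± 0.20). Atp5d, the delta subunit of the catalytic head, likewise had no TMA-ARB library above its control mean (256 ± 32.9 against 214 ± 21.4 CPM, -0.26 ± 0.16). The pair of hypoxia-linked forms were low and variable, Cox4i2 at 1.69 ± 0.69 and 0.86 ± 0.55 CPM (-0.95 ± 0.69) and Ndufa4l2 at 1.82 ± 0.67 and 0.96 ± 0.85 CPM (-0.90 ± 0.67). Ndufa12, an accessory subunit of complex I, was at -0.41 ± 0.31 in its own row and at 0.11 ± 0.20 with its copy summed. Its direction thus depended on the copy. Atp5sl was at -0.28 ± 0.21. When the model held the mitochondrially encoded share too, Cox7a2l was at -0.14 ± 0.16 and Ndufa4l2 at -0.60 ± 0.60. Atp5d at -0.24 ± 0.17, Cox4i2 at -0.88 ± 0.70, Ndufa12 at -0.34 ± 0.32 and Atp5sl at -0.27 ± 0.24 moved less.

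The catalytic core genes listed here showed values near 0 on the log2 scale. Atp5d, also of the core, was further from 0 and is given above with the lower members. Cox5b of complex IV was at 0.22. The 7 core genes of complex I ran from -0.15 ± 0.20 (Ndufs7, which carries the last iron-sulphur cluster) to 0.20 ± 0.22 (Ndufv2). In complex II, Sdha, the flavoprotein, was at -0.12 ± 0.20 and Sdhb, the iron-sulphur subunit, at 0.09 ± 0.23. Uqcrfs1 of complex III was at 0.19 ± 0.18, Cox4i1 of complex IV at -0.02 ± 0.25 and Cox5a at -0.09 ± 0.29. In complex V the catalytic beta subunit Atp5b was at -0.07 ± 0.26 and the gamma subunit Atp5c1 at 0.02 ± 0.19. The test on simulated counts recovered 0% of genes changed 1.5-fold, 18% at 2-fold and 68% at 3-fold, so differences of this size were not detectable at this depth and number of libraries.

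The members varied between libraries about as much as all genes tested, which were not matched for level. The SD of log2 CPM within groups had a median of 0.424 over the members, against 0.433 over all genes tested. It was 0.271 for citrate cycle enzymes, 0.376 for mitochondrial ribosomal proteins and 0.466 for cytosolic ribosomal proteins. Among the steadiest were Atp5sl at 0.123 and Atp5d at 0.171, the latter with levels from 204 to 290.4 CPM in controls and 186 to 246 CPM under TMA-ARB. The widest were Cox4i2 at 1.11, Ndufa4l2 at 1.01 and Cox7a1 at 1.01, all at a few CPM or less, where counting error is larger.

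Complexes I, III, IV and V tended to be high or low in the same libraries. As the mean over members of log2 CPM less each gene's mean over the 10 libraries, all members together stood at 0.11, -0.44, 0.06, 0.23 and -0.12 in control replicates 1 to 5 and at -0.43, 0.40, -0.10, 0.20 and 0.09 in TMA-ARB replicates 6 to 10. Control replicate 2 and TMA-ARB replicate 6 were lowest and TMA-ARB replicate 7 highest, so each group held both high and low libraries. These complexes lay close together in most libraries, for example between -0.59 and -0.40 in TMA-ARB replicate 6 and between 0.33 and 0.52 in TMA-ARB replicate 7. In TMA-ARB replicate 9 complex IV was at -0.01 and complex I at 0.26. Complex II stood apart in several libraries: at 0.10 in TMA-ARB replicate 6, at -0.21 in TMA-ARB replicate 9 and at -0.25 in control replicate 3, where complex I was at 0.08. Cytosolic ribosomal protein genes, which are also short and abundant, stood at -0.29 in control replicate 2, -0.52 in TMA-ARB replicate 6 and 0.30 in TMA-ARB replicate 7. Mitochondrial ribosomal protein genes, with a longer median transcript (1029 against 757 bases), stood at -0.35, -0.16 and 0.61 in the same libraries. The part of features shared by short and abundant transcripts was not tested.

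**Figure D2:**
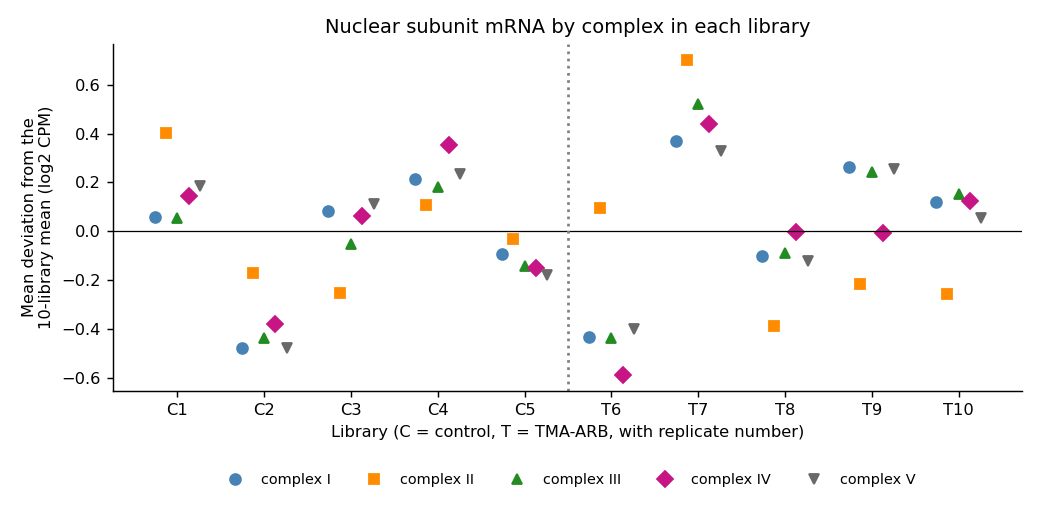
Mean deviation of each complex from its 10-library mean (log2 CPM, y axis) in each library (x axis; C control, T TMA-ARB), 1 marker per complex. Control replicate 2 and TMA-ARB replicate 6 are low and TMA-ARB replicate 7 high for complexes I, III, IV and V, while complex II, the squares, lies at 0.10 in TMA-ARB replicate 6.

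Some members also differed with the mitochondrially encoded share, in each direction. In the main fit the part of the members called lower was below that of all genes tested, and the part called higher was above it. A set of small subunits of complexes I, III, IV and V rose with the share, while Sdha and Sdhd of complex II, the catalytic Atp5b of complex V and Cox7a2l fell. The slope is the log2 change in CPM per doubling of the share, with group in the model. By edgeR at an adjusted p under 0.05 it was called for 15 members in the higher direction and 4 in the lower of 87, against 8.48% higher and 8.90% lower of all genes tested (17.4% in either direction). The 15 were Ndufa2, Ndufa3, Ndufa5, Ndufa6, Ndufab1, Ndufb4, Ndufc1, Ndufs5 and Ndufv3 (9 of 45 in complex I, all accessory), Uqcrb in complex III, Cox6c, Cox7b and Cox7c in complex IV, and Atp5e and Atp5l in complex V. Of the 7 core genes of complex I, 0 were called. Their median slope was 0.162 (4 of 7 positive), against 0.207 for the 29 accessory subunits (25 positive). With 8.48% of all genes called higher, 0 of 7 does not set core genes apart from accessory ones. The 13 mitochondrially encoded subunits were all called higher, which is fixed by the share being made from them.

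These counts depended on single libraries, and the share of all genes called higher moved less. Without TMA-ARB replicate 6, 1 member was called higher, against 6.17% of all genes, and without TMA-ARB replicate 9 there were 3, against 4.35%. Without TMA-ARB replicate 7 there were 30, against 7.26%. The count was 9 without control replicate 2 (7.57% of all genes) or 3 (6.77%) and 8 without control replicate 4 (6.68%). The 4 called lower became 2 when any of control replicates 1, 3 and 5 or TMA-ARB replicates 7 and 9 was left out. Cox6c, Sdhd and Atp5b were the 3 members called in every one of the 9 other settings and with each of the 10 libraries left out. The others were called in 1 (Ndufv3) to 9 (Ndufa6 and Uqcrb) of the 10 fits with a library left out.

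Cox6c, a nuclear subunit of complex IV on chromosome 15 (35925886 to 35938246), measured 253, 208, 392, 425 and 255 CPM in control replicates 1 to 5 and 165, 402, 380, 718 and 489 CPM in TMA-ARB replicates 6 to 10. Within the controls, replicates 3 and 4, with the highest shares, were the highest, and within the TMA-ARB group replicate 9, at a share of 25.0%, was highest and replicate 6, at 2.22%, lowest. The slope was 0.45 ± 0.09 (SE, edgeR adjusted p = 0.00509). With its copy rows summed, found only by the rule added later, it was 0.36 ± 0.10 (adjusted p = 0.0204). Uqcrb, a small subunit of complex III, followed with 143, 85.6, 202, 235 and 128 CPM in controls and 103, 177, 187, 252 and 213 CPM under TMA-ARB (slope 0.36 ± 0.09, edgeR adjusted p = 0.0150, but 0.0673 without TMA-ARB replicate 6). Atp5e measured 468, 193, 381, 609 and 218 CPM in controls and 189, 384, 358, 765 and 475 CPM under TMA-ARB. It was highest in control replicate 4 and TMA-ARB replicate 9, which had the highest share of their groups. Its slope was 0.42 ± 0.13 (edgeR adjusted p = 0.0404), but the adjusted p was 0.0789 in limma-voom and 0.0535 in edgeR with no filter, and it was called in 4 of the 10 fits with a library left out.

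Sdhd, on chromosome 9 (50596357 to 50603812), went the other way, with 121, 84.0, 38.8, 65.7 and 68.1 CPM in controls and 86.9, 195, 40.9, 51.7 and 39.7 CPM under TMA-ARB. The 3 TMA-ARB libraries with the highest shares and control replicate 3 were lowest, and TMA-ARB replicate 7 was highest. The slope was -0.54 ± 0.14 (SE; edgeR adjusted p = 0.0186), and -0.36 without TMA-ARB replicate 7. Atp5b, on chromosome 10 (128083273 to 128090391), had a slope of -0.33 ± 0.08 (adjusted p = 0.0116). It ranged from 726 to 1171 CPM in controls, lowest in replicates 3 and 4, and from 622 to 1494 CPM under TMA-ARB, lowest in replicates 8, 9 and 10.

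Of the other members called lower, Sdha had a slope of -0.23 ± 0.07 (adjusted p = 0.0457) and Cox7a2l -0.22 ± 0.07 (adjusted p = 0.0459). Both were close to the threshold, and Sdha was called in 2 and Cox7a2l in 3 of the 10 fits with a library left out. The remaining subunits of complex II, Sdhb and Sdhc, had slopes of 0.03 ± 0.10 and -0.07 ± 0.08. Cox4i1, in the same complex as Cox6c, had -0.14 ± 0.11. Macrophage markers moved with the share too: 4 of 5 were called lower, and their summed level was 237 to 421 CPM in TMA-ARB replicates 8, 9 and 10, 648 and 792 CPM in control replicates 3 and 4, and 800 to 1180 CPM in the other 5 libraries. Their part in the members' slopes was not tested.

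**Figure D3:**
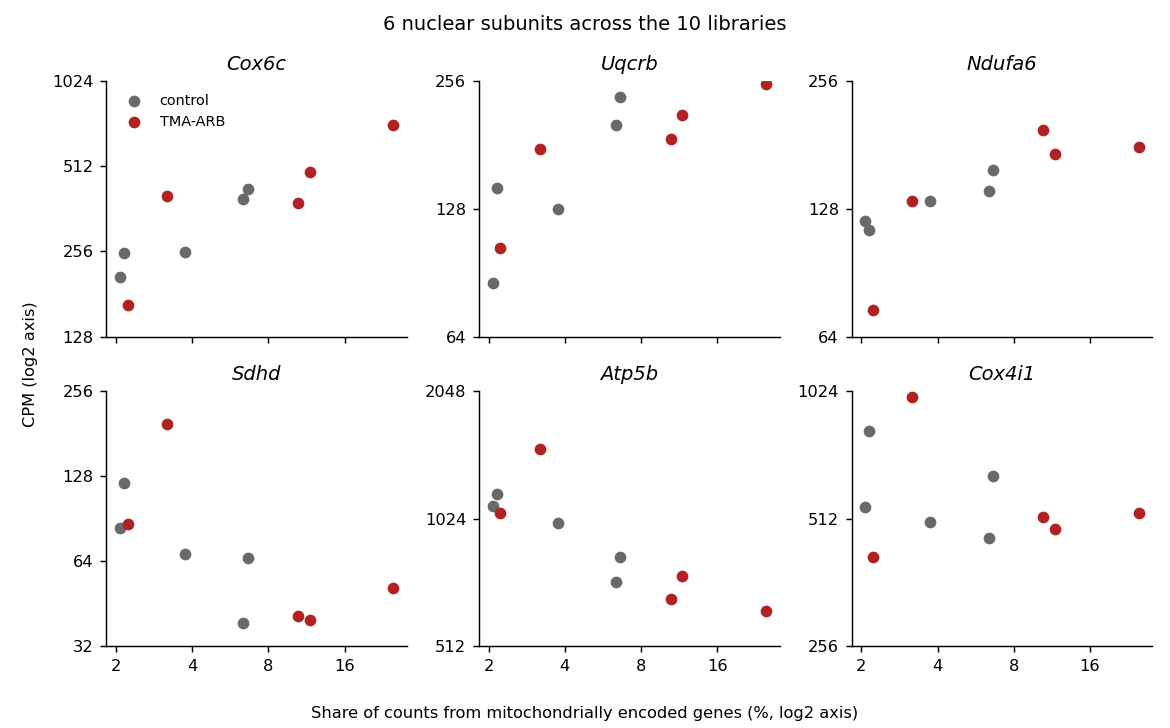
CPM (y axis, log2 scale) of 6 subunits against the mitochondrially encoded share (x axis, percent, log2 scale), 1 point per library, grey for control and red for TMA-ARB. Cox6c, Uqcrb and Ndufa6 are higher in libraries of higher share, Sdhd and Atp5b lower, and Cox4i1, with a slope of -0.14, was not called.

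Transcript length ran along with the slope. The 15 members called higher had a median transcript of 572 bases (382 to 1001), the 68 not called 725.5 bases, and the 4 called lower 1521 bases (1102.5 to 1916). Slopes were positive in 26 of 29 members of up to 600 bases (median 0.21), 23 of 34 of 601 to 1000 bases (0.11) and 8 of 20 of 1001 to 2000 bases (-0.04). Among other nuclear genes positive slopes went from 60.2% of 884 in the shortest class to 49.1% of 3801 at 1001 to 2000 bases. Across the 87 members Spearman's correlation of slope and length was -0.42, and across 13919 other nuclear genes -0.06; genes of 1 library share its depth and RNA and are not independent. By median annotated transcript, Sdha, Sdhd, Atp5b and Cox7a2l are all longer than the members that rose. By longest annotated transcript they are not, since Ndufab1 (3479 bases), Ndufv3 (1582) and Ndufc1 (1249) rose and exceed Sdhd (1231) and Cox7a2l (1129). The other members that rose are shorter than all 4 by that measure too. Direction by role and direction by length cannot be told apart here.

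**Figure D4:**
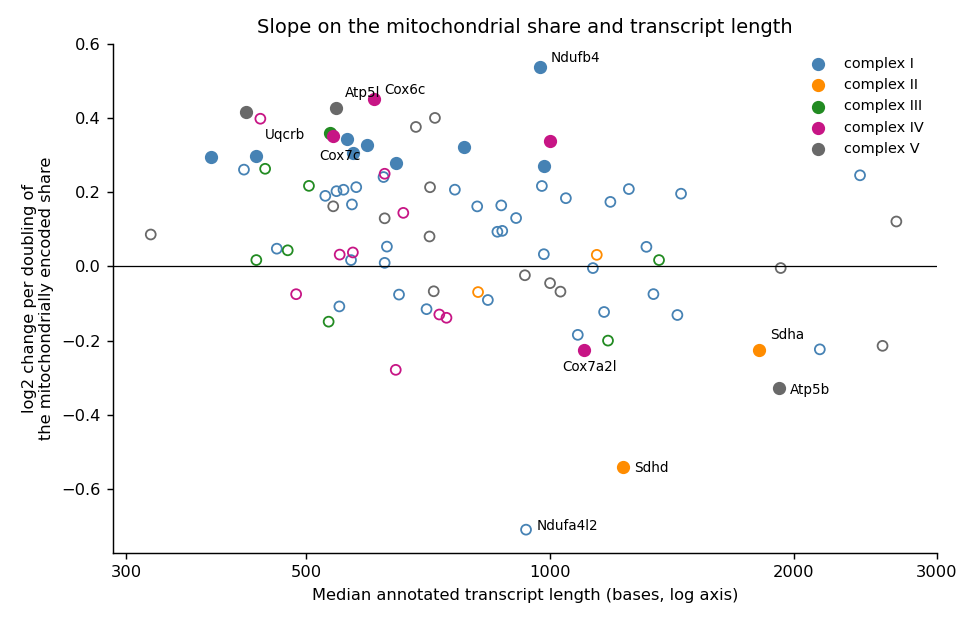
Slope on the mitochondrially encoded share (log2 change per doubling, y axis) against median transcript length (bases, log x axis) for the 87 measured members, coloured by complex; filled points were called at an adjusted p under 0.05. The filled points above 0 lie at 382 to 1001 bases and the 4 below 0 at 1102.5 to 1916 bases.

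Copy rows held much of the signal of some small subunits. Counting the copies found by 2 rules, 25 members had at least 1, 8 had copy counts of at least 10% of their own, and 4 (Ndufb4, Ndufa12, Atp5g2 and Cox7c) had more counts in the copies than in their own row. For Atp5g2 the pseudogene Gm10175 held 29508 counts against 1002, or 96.7% of the sum. Copies held 78.2% for Ndufa12 (Gm15920), 71.2% for Ndufb4, 60.3% for Cox7c, 40.8% for Atp5l (chiefly Gm10221), 29.8% for Ndufs5 (BC002163), 18.1% for Cox6c (Gm6265) and 12.9% for Atp5g1. Whether those reads came from the subunit genes or from the pseudogenes was not tested.

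The division between the rows differed between libraries. For Ndufb4 the copies took 88.0%, 81.2%, 69.1%, 84.4% and 73.2% of the sum in control replicates 1 to 5 and 77.6%, 73.8%, 64.9%, 36.1% and 68.3% in TMA-ARB replicates 6 to 10, lowest in TMA-ARB replicate 9. For Cox7c the copy share was nearly fixed, at 60.8% ± 2.76 in controls and 59.9% ± 2.42 under TMA-ARB. With the copies of both rules summed, 4 slopes were no longer called by edgeR. These were Ndufb4 (0.54 to 0.18, adjusted p = 0.296), Atp5l (0.43 to 0.22, adjusted p = 0.190), Ndufs5 (0.34 to 0.17, adjusted p = 0.207) and Ndufab1 (0.27 to 0.21, adjusted p = 0.108). That of Cox7c was still called (0.32 ± 0.09, adjusted p = 0.0285), and 11 members in all were called higher. Without the rule added later, Ndufb4 had no copy and kept its call. The slope of Cox7c was then 0.41 ± 0.09 (edgeR adjusted p = 0.00641).

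**Figure D5:**
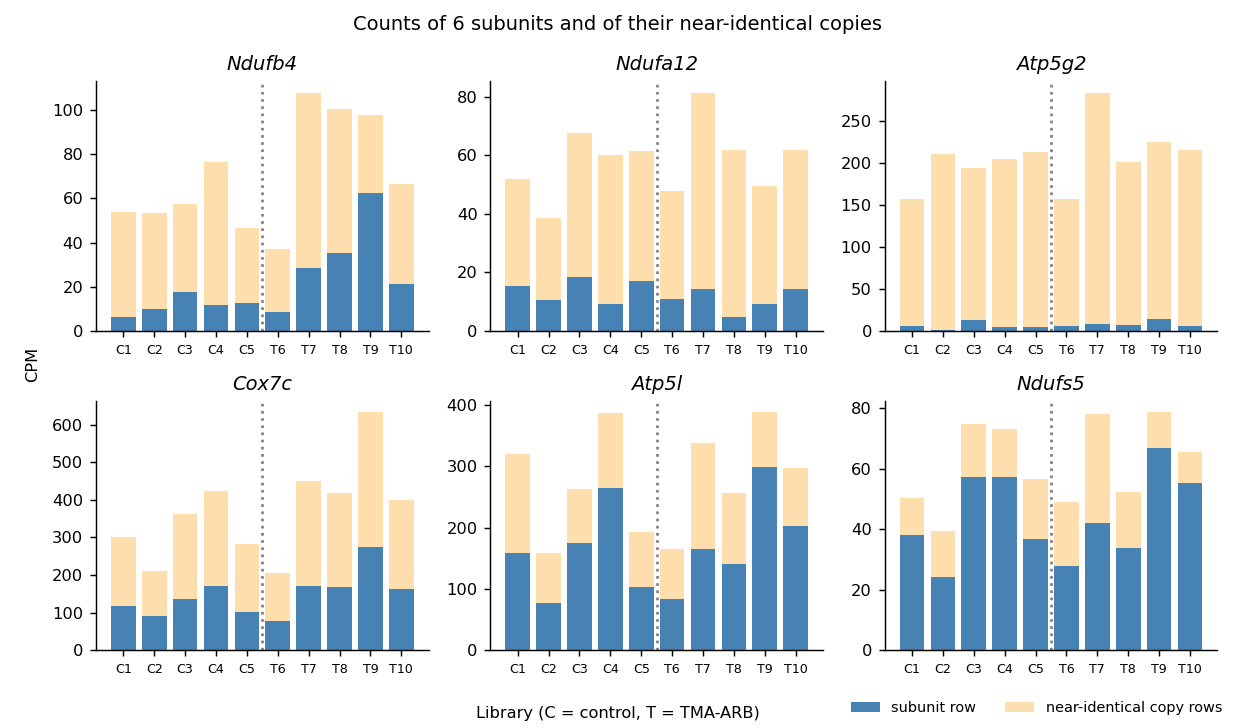
CPM (y axis) of 6 subunit rows (blue) with their near-identical copy rows stacked on them (orange) in each library (x axis; C control, T TMA-ARB). In Atp5g2 the copies hold 96.7% of the summed counts, in Cox7c 60.3%, and in Ndufb4 the blue part is largest in TMA-ARB replicate 9.

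The rest of the pathway gave no called gene for TMA-ARB. Cytosolic ribosomal proteins (68 of 95 positive, median log2 fold change 0.144) and mitochondrial ribosomal proteins (63 of 77, 0.152) had medians close to that of the members, and citrate cycle enzymes were at -0.089 (4 of 13 positive). Electron carriers and regulators had 0.167 (14 of 16 positive), other assembly factors 0.143 (24 of 34) and biogenesis regulators 0.204 (14 of 15). Slope calls on the mitochondrial share are read here against 8.48% higher and 8.90% lower of all genes tested. In the citrate cycle 0 genes were called higher and 2 of 13 lower, among them Dlst, of the oxoglutarate dehydrogenase complex (-0.24 ± 0.06, edgeR adjusted p = 0.0173). Of the carriers and regulators 3 of 16 were called higher, Higd1a (0.51), Cycs, which encodes cytochrome c (0.37), and Higd2a (0.31), and 1 lower, the ubiquinone synthesis gene Coq9 (-0.41). Of the other assembly factors 4 of 34 were called higher and 2 lower, near the shares of all genes. Of the cytosolic ribosomal proteins 32 of 95 were called higher and 4 lower, and of the mitochondrial ribosomal proteins 3 of 77 higher and 8 lower.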

How the data were processed

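Poly-A RNA of tumours, in 10 libraries, 5 a group, was counted by the authors. Salmon and mm10 are named in the submitters' processing notes; the version, annotation and strand setting are not given in the sources used here. The deposited table holds estimated counts for 37882 genes, all whole numbers (0 values not whole), so rounding changed none. Columns were matched to samples by the sample names in the labels (0 unmatched). Library totals ran from 12742953 to 16884621; no molecular identifiers are described, so floors of 3 counts cover counting error only.

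EdgeR 4.0.16 (R 4.3.3) was run on the whole table: TMM scaling, its default filter by group (14063 genes left), robust quasi-likelihood F test, Benjamini-Hochberg adjustment at 0.05. A second fit tested the log2 mitochondrially encoded share with group in the model. SE is the absolute log2 estimate over the square root of F, and log2 CPM used a prior count of 2. Members are found by name; the members, lists, tests and named-gene rule were chosen with earlier results of these data known. That rule took the 6 members of smallest p each way in both fits, the highest and lowest per length of each complex, the 3 of largest and smallest SD, the catalytic core, tissue isoforms and unmeasured members. Some of the genes so named are not reported here. Lengths came from GENCODE M21 (37607 rows matched) and copies from BLAST+ 2.17.0 at 95% identity or more over at least 0.5 of the member transcript. A rule for shorter copies, over at least 0.5 of the copy's own length, was added after the data had been seen. Shares of counts were compared by a two-sided exact permutation test over 252 arrangements, whose smallest p is 0.00794.

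On simulated counts the group test recovered 0%, 18%, 68% and 68% of 50 genes each at 1.5-, 2-, 3- and 4-fold among 14072 genes, with 7 false calls. The share test recovered 8%, 36%, 78% and 94% at 1.25-, 1.5-, 2- and 3-fold per doubling among 14000 genes, with 6 false calls. With no gene changed both called 0. Alternatives were DESeq2 1.42.0, limma-voom (limma 3.58.1) with sample weights, RLE scaling, no filter, a mean of at least 5 CPM, mitochondrial genes left out, covariates, group left out, copies summed, an adjusted p under 0.10 and each library left out. Figures used Python 3.11.15 and matplotlib 3.10.9.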

Additional observations from a re-analysis of the deposited data

Results flagged for a closer look

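In each group of 5 the highest or lowest library was marked where its gap to the next, over the group's range, was above Dixon's critical value of 0.71. This marked 9 of 134 groups of values, and chance alone marks about 1 in 20. Library totals, mitochondrial shares and complex means gave 0 of 14.

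TMA-ARB replicate 7 stood above its group for 5 members of different complexes. Sdhc was at 143.6 CPM there and at 87.1 to 100.2 CPM in the other TMA-ARB libraries. Uqcrc2, a core protein of complex III, was at 212 CPM against 90.5 to 119 CPM. Cox4i1 was at 993 CPM against 417 to 529 CPM, and Cox6b1, a complex IV subunit facing cytochrome c, at 346 CPM against 192 to 230.3 CPM. Atp5g3 was at 528 CPM against 256 to 326 CPM.

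In TMA-ARB replicate 6, Cox5b, a zinc-binding subunit of complex IV, was low at 87.5 CPM against 158 to 180.1 CPM. In control replicate 1, Ndufv1 was high at 124 CPM against 94.1 to 102 CPM. The copy share of the summed Ndufa12 counts was 84.6% in control replicate 4 against 70.3% to 72.6% in the other controls. That of Atp5g2 was 93.8% in TMA-ARB replicate 9 against 96.3% to 97.2%.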

How the results depend on the processing

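No paired analysis was possible because replicate numbers run from 1 to 10 and none is shared between the groups. DESeq2 called 2 genes in all for TMA-ARB (edgeR 0). Genes at an unadjusted p under 0.05, 457 as reported, were 826 in DESeq2, 1389 in limma-voom, 1432 with no filter, 743 with the mitochondrial share as a covariate, and 224 to 1219 with a library left out. Members higher at that p, 2 as reported, were 5 in limma-voom, 0 with muscle and adipocyte covariates, 1 with the wider set of copies summed (chosen after seeing the data), and 1 to 10 with a library left out. Members lower, 0 as reported, were 1 in DESeq2, 3 in limma-voom, 1 with no filter, and 0 to 1 with a library left out. For the mitochondrial share, genes called (2443) were 1346 to 2529 with a library left out, members called higher (15) 1 to 30, and members called lower (4) 2 to 4; every other setting kept these counts within 1.5 times. Levels by longest transcript were compared only for the highest member of each complex. Of these, Sdhc moved, to 32.0 CPM per kilobase. Ndufa12 reversed from -0.41 to 0.11 with either set of copies summed. The cause was not tested beyond what each setting changes by construction. Medians of members and complexes moved by less than the spread between replicates in all settings, but the signs of several small ones turned, as given with the results. Depth limits the isoforms of a few CPM or less. With 5 libraries a group, differences between the groups of 2-fold or less would mostly go uncalled (18% recovered at 2-fold on simulated counts).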
